A study of Mus musculus with 8 samples.

Results

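The 10 genes examined here lie on the same part of mouse chromosome 13 as Irf4 and were measured in splenic B cells with and without Irf4. They are Dusp22, Exoc2, Serpinb9, Serpinb6a, Serpinb1a, Ripk1, Nqo2, Carmil1, Gmnn and Gm11342. The genes were chosen by their place near Irf4 with the Irf4 null and wild-type signals of these same arrays already known, so their genotype differences are given as a description. Where the text says that one of them was called by the fit over all probe sets, this serves only to set it beside the share called overall and is no test of these genes. Of the 10 genes, 9 had at least 1 probe set that names that gene alone, 13 probe sets in all of the 45101 on the array. All 13 passed the filter on dim probe sets. For Ripk1 no probe set carried the name in the annotation used, and it is not analysed here.

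RNA came from splenic B cells of 12-week-old mice, either Irf4 null (irf4-/-, n = 4 arrays) or wild-type littermates (irf4+/+, n = 4 arrays), all labelled as strain C57BL/6. Non-B cells had been removed from spleen cells with magnetic beads, and 1 Affymetrix mouse array was hybridised per sample. The null allele is carried by all cells of the animal. The labels name neither the part of Irf4 that was deleted nor the strain in which the allele was made. The labels do not tie each array to a mouse of its own, so the errors and p-values cover the spread from sample to sample, some of which may be technical. In RNA of bulk cells, fewer cells of a type and less RNA per cell cannot be told apart.

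When a gene is disrupted by targeting in embryonic stem cells, the DNA beside it is inherited with the altered allele through later crosses. If the stem cells came from another strain, that linked stretch can keep its own variants after backcrossing, and a probe over such a variant can read lower although the RNA is as abundant. Neighbouring genes can also change in expression when a selection cassette or the loss of a regulatory element alters the locus. Several probe sets of 1 gene can lie on different stretches of its RNA, and then their agreement or disagreement bears on this question. Probe positions were not at hand, so whether those compared here do so is not known. Irf4 itself, a transcription factor of the interferon regulatory factor family that lymphocytes need for plasma cell formation, read 1720 to 2341 on the wild-type arrays and 244 to 315 on the Irf4 null arrays with its brighter probe set.

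In the RefSeq gene order of the assembly GRCm38.p6, Dusp22 is the next gene upstream of Irf4 and Exoc2 the next gene downstream. Farther downstream come Serpinb1a with 8 protein-coding genes in between, Serpinb9 with 11, Serpinb6a with 23, Nqo2 with 24 and Ripk1 with 25. On the upstream side 41 protein-coding genes lie between Irf4 and Gmnn and 45 between Irf4 and Carmil1, and the long noncoding RNA gene Gm11342 lies between Gmnn and Carmil1. The promoter windows of the 3 called flanking genes that the RefSeq promoter table holds are shown here. These windows carry the start sites of genes described next. Each runs from 250 bases before to 50 bases after the gene's start, 5′ to 3′ on the gene's strand, in build GRCm38.p6. Capitals mark a repeat of the interferon response half-site, GAAANNGAAA on either strand, the kind of sequence that interferon regulatory factors bind. The Dusp22 window is chr13:30659809-30660108 on the plus strand, the Serpinb9 window chr13:33004291-33004590 on the plus strand and the Gm11342 window chr13:24375901-24376200 on the minus strand.
Dusp22: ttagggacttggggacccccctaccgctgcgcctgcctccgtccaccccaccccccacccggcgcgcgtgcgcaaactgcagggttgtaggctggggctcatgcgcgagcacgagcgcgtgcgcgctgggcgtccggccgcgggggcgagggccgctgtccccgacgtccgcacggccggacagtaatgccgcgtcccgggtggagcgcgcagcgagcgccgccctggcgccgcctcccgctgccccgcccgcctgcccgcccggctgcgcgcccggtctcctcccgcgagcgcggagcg
Serpinb9: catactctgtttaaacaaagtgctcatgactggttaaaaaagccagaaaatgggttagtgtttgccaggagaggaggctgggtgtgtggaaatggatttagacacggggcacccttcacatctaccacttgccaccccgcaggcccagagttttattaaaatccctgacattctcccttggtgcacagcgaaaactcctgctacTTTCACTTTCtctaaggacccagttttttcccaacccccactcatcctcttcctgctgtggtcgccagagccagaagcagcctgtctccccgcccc
Gm11342: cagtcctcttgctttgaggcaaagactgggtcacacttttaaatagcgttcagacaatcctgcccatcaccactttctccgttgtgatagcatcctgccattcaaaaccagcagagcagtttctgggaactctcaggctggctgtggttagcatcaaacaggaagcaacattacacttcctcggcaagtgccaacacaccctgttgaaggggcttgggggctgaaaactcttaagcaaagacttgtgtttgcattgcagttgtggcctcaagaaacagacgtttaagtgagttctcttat

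The Dusp22 window held no match to this repeat, 79.0% G and C, and 49 CpG dinucleotides, against medians of 52.7% and 7 over the 32851 promoter windows of the table. The Serpinb9 window held 1 match, GAAAGTGAAA on the opposite strand, ending 36 bases before the start of the gene. No match was found in the Gm11342 window. The table held 11 windows for 7 of the 10 flanking genes, and Carmil1, Gmnn and Serpinb1a were not among them. The repeat was found in 4 of the 11 windows, those of Exoc2, Serpinb9, Serpinb6a and Ripk1, and in 3.44% of all windows. The matches of Serpinb6a and Ripk1 are 1 and the same site, GAAATCGAAA at chr13:34002869-34002878, because these genes start close to each other on opposite strands, so the 4 windows hold 3 separate sites. The third, in Exoc2, is GAAAGGGAAA. The composite element of Ets and interferon regulatory factors, GGAANNGAAA on either strand, was found in 2.72% of all windows and in none of the 11. A match is a description of these letters and no evidence of binding.

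Among the 13 probe sets of the flanking genes 4 were called higher in Irf4 null, those of Dusp22, Gmnn and Serpinb9 (2 probe sets), and 2 were called lower, those of Carmil1 and Gm11342. A call means an adjusted p below 0.05 in limma, a linear model with moderated errors, over all 27022 probe sets tested. Over all of them 2.01% were called higher and 1.51% lower. The same 4 probe sets were those with all Irf4 null arrays above all wild-type arrays, a pattern that 5.48% of all probe sets showed, and the same 2 had all Irf4 null arrays below all wild-type arrays, which 5.33% of all showed. The other 7 probe sets, of Exoc2, Serpinb1a, Serpinb6a and Nqo2, overlapped between the genotypes and had log2 differences between -0.23 and 0.32. The median log2 difference of the 13 was 0.19, and that of all probe sets tested was 0.003. Since the genes were proposed with this contrast in view, nothing is read from these shares. For some lists and neighbours, counts at an unadjusted p below 0.05 are given further on. The share of all genes at that level is not given, so nothing is read from those counts either.

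**Figure D1:**
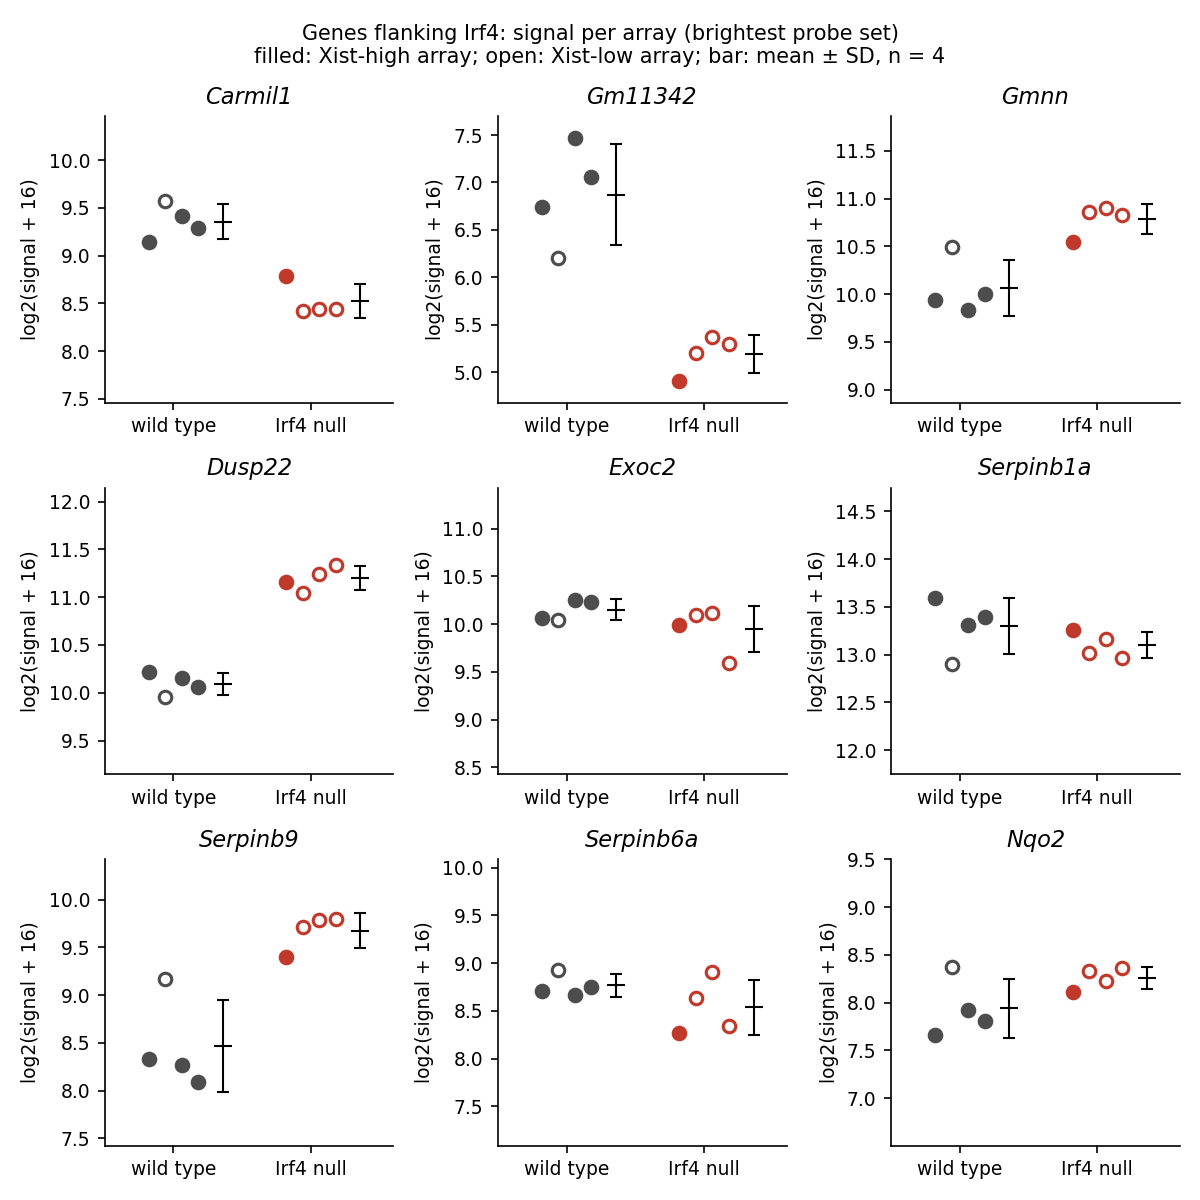
Each panel plots log2(signal + 16) on the y axis for the brightest probe set of 1 flanking gene, with wild type in grey and Irf4 null in red, 1 point per array, and a bar for the mean ± SD (n = 4). Filled points are arrays with a high Xist signal and open points arrays with a low one. The genotypes do not overlap for Dusp22, Gmnn, Serpinb9, Carmil1 and Gm11342 and overlap for the other 4 genes.

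Dusp22 encodes an atypical dual specificity phosphatase that acts in JNK and T cell receptor signalling. Its probe set read 1173, 975, 1121 and 1049 on wild-type arrays 1 to 4 and 2279, 2103, 2411 and 2577 on Irf4 null arrays 1 to 4. Every Irf4 null array was above every wild-type array, and the spread within each genotype was small beside the gap. The means were 1080 ± 86.1 in wild type and 2343 ± 201 in Irf4 null (SD, n = 4 each). The log2 difference was 1.11 ± 0.09 (SE), which is 2.15-fold on the log2(signal + 16) scale. Over 22 alternative settings the log2 difference ran from 1.02 to 1.26. Only 1 probe set measured it, so agreement between stretches of the RNA was not tested. Of 10 listed atypical dual specificity phosphatases 6 were tested, with a median log2 difference of 0.05. Of these 2 were called higher, Dusp22 and Dusp19 (from 558 ± 32.6 to 754 ± 66.0, SD, adjusted p = 0.0408, limma). Dusp3 was called lower (from 535 ± 67.0 to 372 ± 32.1, adjusted p = 0.0469). With the term for Xist described further on, neither Dusp19 (adjusted p = 0.0741, limma) nor Dusp3 (0.0906) was called. Over all 11802 genes tested 2.67% were called higher and 1.7% lower. This list and the later ones were chosen with earlier results known, so nothing is read from their counts.

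Exoc2 encodes a subunit of the exocyst, the complex that tethers secretory vesicles to the plasma membrane. It lies on the other side of Irf4 and read 1056, 1043, 1206 and 1189 on wild-type arrays 1 to 4 and 998, 1082, 1093 and 758 on Irf4 null arrays 1 to 4. The genotypes overlapped, and Irf4 null array 4 was the lowest. The log2 difference was -0.20 ± 0.12 (SE). Thus the 2 genes next to Irf4 gave different readings on the same arrays, 1.11 for Dusp22 and -0.20 for Exoc2. All 9 exocyst subunits were measured and none was called (limma), 0 of them at an unadjusted p below 0.05, with a median log2 difference of -0.03 and Exoc5, the brightest, at 2236 ± 108 in wild type and 2109 ± 97.5 in Irf4 null (SD).

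The serpins downstream of Irf4 belong to clade B, intracellular inhibitors of serine proteases that shield cells from their own or their neighbours' enzymes. Serpinb9 inhibits granzyme B, the protease of cytotoxic lymphocytes. Its brighter probe set read 306, 562, 294 and 258 on wild-type arrays 1 to 4 and 662, 825, 870 and 872 on Irf4 null arrays 1 to 4. Wild-type array 2 stood above the other wild-type arrays, and all Irf4 null arrays were higher still. The means were 355 ± 140 and 807 ± 99.4 (SD), and the log2 difference was 1.21 ± 0.21 (SE). Its dimmer probe set read 105, 240, 120 and 94.7 on wild-type arrays 1 to 4 and 248, 288, 353 and 279 on Irf4 null arrays 1 to 4, a log2 difference of 1.06 ± 0.25. Here wild-type array 2 lay just under the lowest Irf4 null array. This second probe set lost its call in 14 of 22 alternative settings, among them the fits without any 1 of the arrays other than wild-type array 2, where its log2 difference ran from 0.92 to 1.13.

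Serpinb1a, an inhibitor of neutrophil elastase and related proteases, was bright in both genotypes. Its brighter probe set read 12347, 7635, 10171 and 10716 on wild-type arrays 1 to 4 and 9768, 8276, 9185 and 7949 on Irf4 null arrays 1 to 4. The groups overlapped, wild-type array 2 being the lowest of all 8. The log2 difference was -0.20 ± 0.13 (SE), and that of the dimmer probe set, which read 1534 to 2754 in wild type and 1434 to 2434 in Irf4 null, was -0.12 ± 0.19. The dimmer one has an identifier of the kind given to probe sets shared with related transcripts. Serpinb6a, an inhibitor of cathepsin G and other proteases, read 402, 472, 391 and 416 on wild-type arrays 1 to 4 and 292, 380, 463 and 308 on Irf4 null arrays 1 to 4. Its groups also overlapped, with a log2 difference of -0.23 ± 0.15. The clade B serpins of mouse include close copies of 1 another in this cluster, and hybridisation of 1 copy's RNA to another's probes was not tested.

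Of 20 clade B serpins in the list, 7 passed the filter on dim probe sets. Serpinb9 was called higher, none was called lower and 6 were not called, with a median log2 difference of -0.20, beside 2.67% of all 11802 genes tested called higher and 1.7% called lower. The neighbouring Serpinb6b read 764 ± 526 in wild type and 1183 ± 208 in Irf4 null (SD, adjusted p = 0.23, limma) and Serpinb9b 55.0 ± 18.4 and 79.6 ± 10.7 (adjusted p = 0.348). A list of 9 proteases was also examined, not all of them serine proteases or targets of these serpins. None was called (limma), 2 were higher and 1 lower at an unadjusted p below 0.05, and the median log2 difference was 1.11. Of the 9, 5 are also in the marker lists used here for NK cells (Gzma, Gzmb) and neutrophils (Elane, Ctsg, Prtn3), whose medians were 1.22 and 1.40, and the part of those cells in this shift was not tested. Gzmb, the target of Serpinb9, read 198 ± 235 in wild type and 279 ± 150 in Irf4 null (SD, adjusted p = 0.551, limma), and Ctsc, the brightest of the list, 11793 ± 1191 and 10279 ± 495.

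Nqo2 encodes a quinone reductase that uses dihydronicotinamide riboside. Its brightest probe set read 186, 315, 226 and 208 on wild-type arrays 1 to 4 and 261, 306, 283 and 313 on Irf4 null arrays 1 to 4. Wild-type array 2 was the highest of all 8, and the genotypes overlapped. The log2 difference was 0.32 ± 0.16 (SE), and the other 2 probe sets gave 0.21 ± 0.18 and 0.19 ± 0.17. Of 10 quinone and oxidative stress enzymes and regulators tested none was called (limma), 0 of them at an unadjusted p below 0.05, with a median log2 difference of 0.09. Nfe2l2, the brightest and the transcription factor that drives many such genes, had a log2 difference of -0.09 ± 0.08.

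Ripk1, the kinase that joins death receptors to NF-kappaB and necroptosis, had no probe set to describe, but 17 of 18 listed genes of its pathway were tested. Of these 2 were called higher, none lower, and 15 were not called, with a median log2 difference of 0.07. Among all genes tested 2.67% were called higher and 1.7% lower. Zbp1, a nucleic acid sensor that binds RIP kinases, rose from 608 ± 80.1 to 1119 ± 105 (SD, adjusted p = 0.0021, limma). Mlkl, the pore-forming effector of necroptosis, rose from 63.9 ± 70.2 to 239 ± 42.2 (adjusted p = 0.0343). Its signals on wild-type arrays 1 to 4 were 15.3, 167, 47.8 and 25.2. Some of these lay below 42.9, the mean signal at which the filter on dim probe sets was set, so its fold is uncertain. Zbp1 and Mlkl are also known as interferon-induced genes. With a term for arrays with high Xist signal Mlkl was not called (adjusted p = 0.0805).

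Carmil1 encodes a large protein that uncaps actin filaments by binding capping protein. It read 549, 744, 668 and 609 on wild-type arrays 1 to 4 and 426, 327, 331 and 331 on Irf4 null arrays 1 to 4. All Irf4 null arrays were below all wild-type arrays, and Irf4 null arrays 2 to 4 gave nearly equal signals. The means were 643 ± 83.1 and 354 ± 48.2 (SD), and the log2 difference was -0.83 ± 0.13 (SE), a 1.78-fold lower value on the log2(signal + 16) scale. Of 8 genes of actin capping tested Carmil1 alone was called, with a median log2 difference of 0.01 over the list. Carmil1 was chosen with its value known, and 1.7% of all genes tested were called lower. The capping protein subunit gene Capza1 had a log2 difference of 0.03 ± 0.06 and Carmil2, a relative of Carmil1, 0.19 ± 0.15.

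Gm11342, a long noncoding RNA gene with no function that is known for certain, read 91.2, 57.9, 161 and 118 on wild-type arrays 1 to 4 and 13.9, 20.7, 25.4 and 23.2 on Irf4 null arrays 1 to 4. All Irf4 null arrays were below all wild-type arrays. The log2 difference was -1.68 ± 0.28 (SE) as measured. The Irf4 null signals lay below 42.9, the mean signal at which the filter on dim probe sets was set, and the probe set passed that filter only through its wild-type values. No detection calls were at hand, so its level in Irf4 null cannot be told from background and the fold is uncertain. With a pseudocount of 1 the log2 difference was -2.24, and with 64 it was -0.98.

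Gmnn encodes geminin, which binds the licensing factor CDT1 and so prevents DNA from being replicated more than once in a cell cycle. It read 966, 1427, 898 and 1013 on wild-type arrays 1 to 4 and 1484, 1850, 1898 and 1809 on Irf4 null arrays 1 to 4. Wild-type array 2 stood above the other wild-type arrays and just under the lowest Irf4 null array. The means were 1076 ± 239 and 1760 ± 188 (SD), and the log2 difference was 0.72 ± 0.14 (SE). The call was lost in 10 of 22 alternative settings, among them the fits without any 1 of wild-type arrays 1, 3 and 4 and Irf4 null arrays 2, 3 and 4, with log2 differences of 0.64 to 0.70 in those 6 fits. Of 18 genes of replication licensing and proliferation Gmnn alone was called and 7, Gmnn included, were higher at an unadjusted p below 0.05 (limma), with a median log2 difference of 0.23 over the list. Gmnn was chosen with its value known, and 2.67% of all genes tested were called higher. Cdt1, the partner of geminin, read 6342 ± 550 in wild type and 5602 ± 546 in Irf4 null (adjusted p = 0.345, limma), and the proliferation marker Mki67 1548 ± 879 and 2666 ± 1321 (adjusted p = 0.377).

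Where a flanking gene had several probe sets, their log2 fold changes were similar. The 2 probe sets of Serpinb9 differed in their log2 fold changes by 0.15, with an SD of that difference between arrays of 0.13. For Serpinb1a the gap was 0.08 (SD 0.21), and among the 3 probe sets of Nqo2 the widest gap was 0.13 (SD 0.13). Over the 5747 genes with several tested probe sets the median gap between the highest and lowest log2 fold change was 0.19, so all 3 genes were below the median. Across the 8 arrays the Serpinb9 probe sets correlated at r = 0.98 (log2 values of the same arrays, given as a description). Those of Serpinb1a correlated at r = 0.80 and those of Nqo2 at 0.79 to 0.88. Between the 2 probe sets of Irf4 the gap was -1.29, with log2 fold changes of -2.76 and -1.47, and the smaller one belongs to the dim probe set. The called genes with a single probe set, Dusp22, Carmil1, Gm11342 and Gmnn, had no further one to set beside it.

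**Figure D2:**
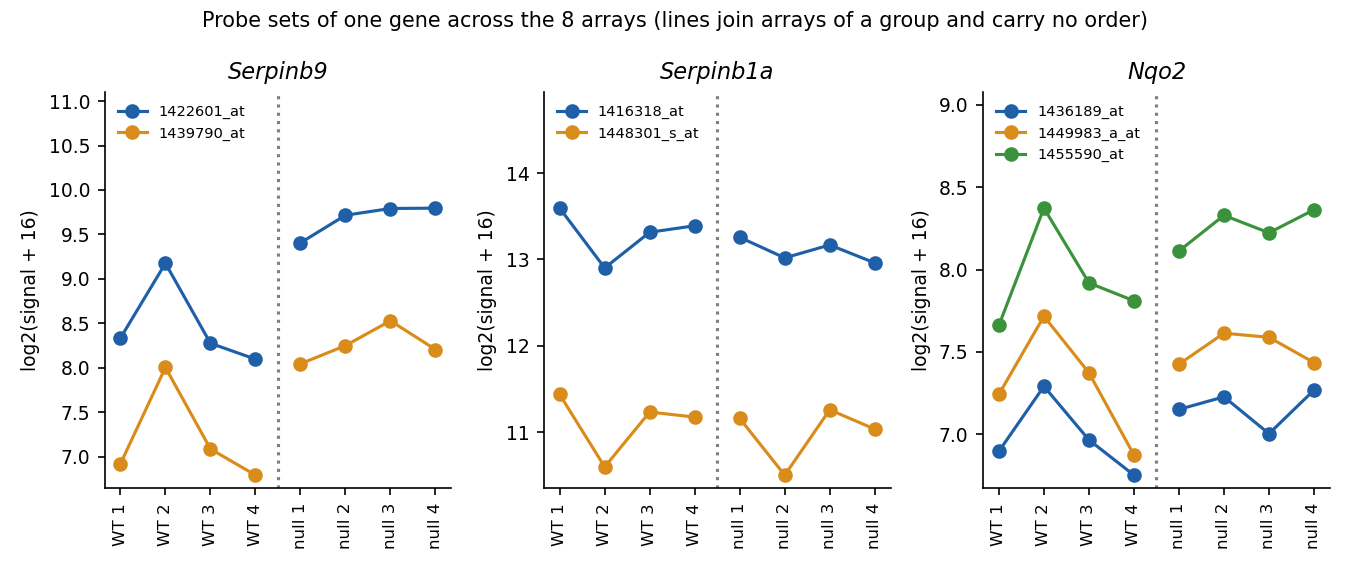
The panels plot log2(signal + 16) on the y axis against the 8 arrays on the x axis for the probe sets of Serpinb9, Serpinb1a and Nqo2, 1 colour per probe set, and lines only join arrays of a genotype. The probe sets of Serpinb9 follow each other most closely, and within Irf4 null the probe sets of a gene rank the arrays partly differently. Wild-type array 2 is high for Serpinb9 and Nqo2 and low for Serpinb1a.

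To see the flanking genes among all their neighbours, the 30 measured genes on each side of Irf4 were taken by position alone, 1 probe set per gene. Of these 60 genes 3 were called higher and 5 lower, 13.3% in all, beside 4.37% of all genes tested and 7.35% of the 449 tested on chromosome 13. Since 5 of the 8 are genes chosen with these values known, nothing is read from that share. The median log2 difference of the 60 was 0.02, the same as the median of 0.02 over all 11802 genes. All 3 called higher are named flanking genes, Dusp22, Gmnn and Serpinb9. Of the 51 neighbours that are not among the named genes 3 were called lower and none higher (limma), 5.88% in either direction. That lies between the shares of all genes and of chromosome 13 called in either direction. Lower calls alone made up 1.7% of all genes tested, and 14 of the 449 on chromosome 13. These shares were not tested against each other. At an unadjusted p below 0.05, 6 of the 51 were lower and 4 higher (limma). The upstream side held 2 called higher and 5 lower of 30, and the downstream side 1 higher and none lower of 30 (4 higher and 2 lower at an unadjusted p below 0.05), a difference between the sides that was not tested. The count of 8 was 16 without wild-type array 2, and 5 without any 1 of wild-type arrays 1, 3 and 4 and Irf4 null arrays 2 and 4.

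The 3 other neighbours called lower were all upstream. Sox4, a transcription factor of early lymphocyte development, fell from 2201 ± 464 to 1119 ± 91.7 (SD, log2 difference -0.94 ± 0.14 SE, adjusted p = 0.00435, limma) with its brightest probe set. Its 3 other tested probe sets were not called, with log2 differences of -0.70, -0.69 and -0.45 (adjusted p = 0.0585, 0.0625 and 0.703, limma). Cmah, which makes the sialic acid Neu5Gc, fell from 3884 ± 997 to 2108 ± 500 (-0.88 ± 0.19, adjusted p = 0.0331). The histone gene H3c7 fell from 341 ± 118 to 135 ± 11.2 (-1.18 ± 0.24, adjusted p = 0.0213). With the Xist-high term Sox4 was still called (adjusted p = 0.0121), and Cmah (0.0979) and H3c7 (0.0686) were not. Cmah had 6 tested probe sets, 2 of them called, and all 6 had log2 differences between -1.08 and -0.49.

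Carmil1, Cmah and Gm11342 follow each other in the order of measured genes, at places 20, 19 and 18 upstream of Irf4, and all 3 were lower in Irf4 null. Since Carmil1 and Gm11342 were chosen with these values known, nothing is read from their standing together. The next measured gene towards Irf4, Ripor2, had 4 tested probe sets with log2 differences from -0.18 to -0.12, none of them called. Next to Dusp22, the gene Uqcrfs1 read 3597 ± 213 in wild type and 3806 ± 389 in Irf4 null (SD, adjusted p = 0.715, limma). Along the chromosome, called genes of both directions stood among genes that were not called.

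**Figure D3:**
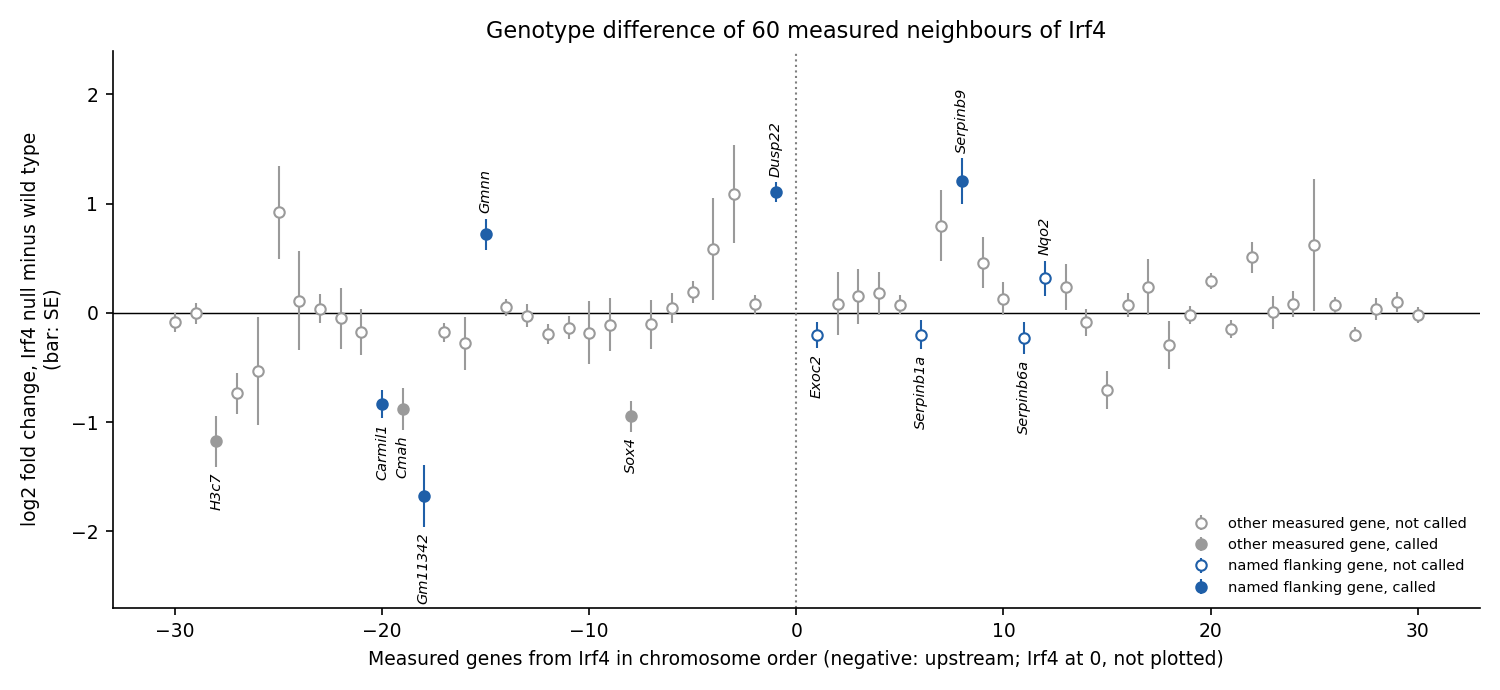
The plot gives the log2 fold change (Irf4 null minus wild type, bars are SE) on the y axis for 60 measured genes in chromosome order around Irf4 on the x axis. Named flanking genes are blue, other genes grey, and filled points were called. Dusp22 at 1.11 stands beside Exoc2 at -0.20. Carmil1, Cmah and Gm11342 are 3 adjacent measured genes upstream that read lower. Carmil1 and Gm11342 were chosen with these values known, so nothing is read from this.

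The genes most like Serpinb9 over the 8 arrays, by the correlation of log2 values, were Ifih1, a sensor of viral RNA (r = 0.991), Suco (r = 0.988) and Fasl, the ligand of the death receptor Fas (r = 0.987). Those most like Gm11342 were the actin-capping gene Tmod3 (r = 0.993), Gpr155 (r = 0.993) and Endou (r = 0.977). Ifih1 had a log2 difference of 1.43 ± 0.20 (SE) and Gpr155 of -1.39 ± 0.19. These correlations are over the same 8 arrays and both genotypes, and are given as a description.

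The arrays also differ in ways that the labels do not give. Sex is not labelled, and Xist, a noncoding RNA made from a silenced X chromosome, was over a signal of 1000 on wild-type arrays 1, 3 and 4 and Irf4 null array 1 and below it on the other 4. The mean log2 value of 36 markers of neutrophils, T cells, NK cells, macrophages and red cell precursors was 8.02, 9.93, 8.36 and 8.20 on the wild-type arrays and 8.64, 10.1, 10.2 and 9.32 on the Irf4 null arrays. The summed signal of the 12 neutrophil markers ran from 5986 to 57294 in wild type and from 11828 to 78808 in Irf4 null, and that of 7 NK cell markers from 2190 to 7051 and from 3849 to 12747. The marker mean was highest on the 4 Xist-low arrays, wild-type array 2 among them. Only Prf1 of these markers was called, while 6 of 7 NK cell and 3 of 5 T cell markers were higher at an unadjusted p below 0.05 (limma), 1 of 7 for monocytes and macrophages and 0 for neutrophils and red cell precursors. Their median log2 differences were 1.22 for NK cells, 1.14 for T cells and 1.40 for neutrophils. No marker was lower at that level, and none was at 0 on any array. B cell markers were bright everywhere, at a mean log2 of 12.3 to 12.6 in wild type and 12.4 to 12.6 in Irf4 null, with 0 of 7 called or at an unadjusted p below 0.05 (limma). Marginal zone markers were at 10.4 to 10.98 in wild type and 11.7 to 12.0 in Irf4 null, with 6 of 8 called higher. Follicular markers had 1 of 5 called lower and plasma cell markers 3 of 5. Over all genes tested 2.67% were called higher and 1.7% lower. The marker lists were chosen with earlier results of these data known. Nothing is read from their counts, called or at an unadjusted p. Whether the share of any cell type or B cell subset differed was not tested, nor was its part in the values of the flanking genes.

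With the Xist-high term in the fit, Dusp22 was at 1.14 ± 0.11, Carmil1 at -0.82 ± 0.15 and Gm11342 at -1.55 ± 0.33 (SE), each close to its value without the term. Gmnn was at 0.50 ± 0.10 and the brighter Serpinb9 probe set at 0.88 ± 0.14, both smaller than without it. With the marker mean as a covariate the values were 1.18 for Dusp22, -0.85 for Carmil1, -1.52 for Gm11342, 0.47 for Gmnn and 0.84 for Serpinb9. Within the Xist-low arrays, where 1 wild-type array stands against 3 Irf4 null arrays, Dusp22 was at 1.26, Carmil1 at -1.14, Gm11342 at -0.92, Gmnn at 0.37 and Serpinb9 at 0.59. Within the Xist-high arrays, where 3 wild-type arrays stand against 1 Irf4 null array, they were at 1.02, -0.49, -2.19, 0.62 and 1.17 in the same order. With a single array in 1 genotype these values are descriptions. The direction of these 5 genes was the same in both subsets. This was fixed beforehand, since their arrays do not overlap between the genotypes, and nothing is read from it. The 3 probe sets of Nqo2 and both of Serpinb1a, which overlap, changed sign between the subsets.

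**Figure D4:**
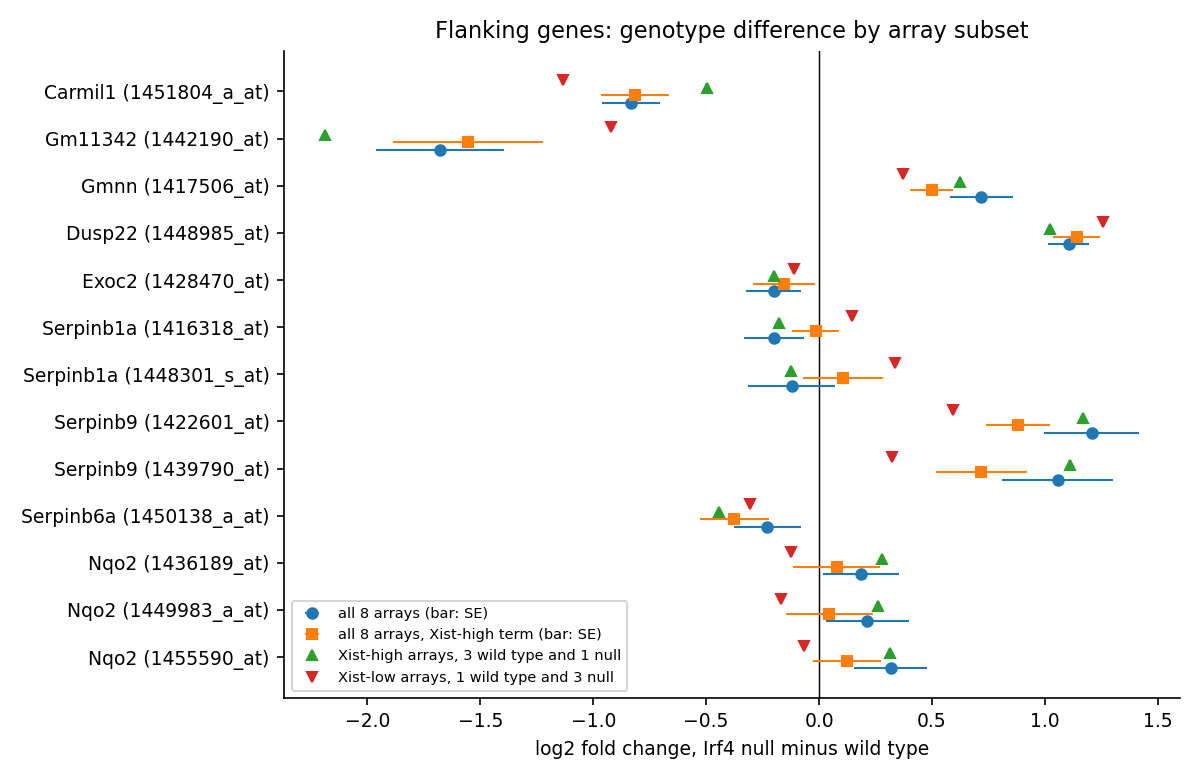
For each of the 13 probe sets on the y axis the plot gives the log2 fold change (Irf4 null minus wild type) on the x axis from all 8 arrays, from all 8 with the Xist-high term (bars are SE), and within the Xist-high and the Xist-low arrays, which have 1 array in 1 genotype. Dusp22 stays between 1.02 and 1.26. Of the other called genes, Serpinb9, Gmnn and Gm11342 are nearest 0 within the Xist-low arrays and Carmil1 within the Xist-high arrays.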

How the data were processed

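The table the authors deposited holds 1 linear intensity for each probe set on each of 8 arrays. Per the submitters' processing notes MAS5 was used, with no version or scaling target named there. A mean that left out the top and bottom 2% of probe sets came to 499.9 on every array, so no further scaling was applied, and no 2 columns were identical. MAS5 handles each array alone and the table has no detection calls, so dim signals cannot be told from background. Precision is limited by the number of arrays.

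Names came from the annotation of the platform (34958 with 1 symbol, 932 with several, 9211 unnamed here). Symbols were updated by gene identifier to the RefSeq table of GRCm38.p6, which matched 34754. That table also gave the gene order. Promoter windows came from RefSeq in the same build.

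After leaving out 64 control probe sets and the 40% with the lowest mean log2(signal + 16), 27022 probe sets entered a linear model in limma 3.58.1 (R 4.3.3), with eBayes, a variance trend, Benjamini-Hochberg adjustment and a threshold of 0.05. The added 16 makes folds of dim probe sets smaller. Each gene was represented by its brightest tested single-gene probe set. Named are the flanking genes and Irf4, called neighbours, the 3 genes most correlated with the flanking probe set of the largest rise and of the largest fall, up to 3 called genes per list or else its brightest, and a few partners or neighbours singled out after their values were seen (Serpinb6b, Serpinb9b, Gzmb, Capza1, Carmil2, Cdt1, Mki67, Ripor2, Uqcrfs1). The flanking genes and all lists were chosen with earlier results of these data known. The fit was tested on simulated data. Alternatives changed the pseudocount, filter, scaling, variance model, weights, threshold, arrays and covariates, and the number of neighbours. Figures were drawn with matplotlib 3.10.9.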

Additional observations from a re-analysis of the deposited data

Results flagged for a closer look

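In 26 groups of 4 arrays (13 probe sets, 2 genotypes), 2 arrays lay far from the other 3 of their group by Dixon's test, which flags about 1 group in 20 by chance. Carmil1 read 426 on Irf4 null array 1, against 327 to 331 on the other Irf4 null arrays. Serpinb9 read 562 on wild-type array 2 with its brighter probe set, against 258 to 306 on the other wild-type arrays.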

How the results depend on the processing

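Of the 13 flanking probe sets 6 were called, and 4 to 6 under most alternatives, but 3 within the Xist-high arrays, 1 within the Xist-low arrays and 3 at a threshold of 0.01. Of all probe sets 950 were called, 1746 with array weights, 555 without the variance trend, 614 with the other-cell marker covariate, 322 within the Xist-high and 117 within the Xist-low arrays, 330 at the threshold of 0.01, and 466 to 2172 with 1 array left out. Of the 60 neighbours 8 were called, 13 with array weights, 5 without the trend, 1 within the Xist-low arrays, 4 at 0.01, and 5 to 16 with 1 array left out. Among 15 neighbours each side 4 were called, among 60 each side 13, and without the named flanking genes 3. The brighter Serpinb1a probe set turned to 0.0036 with the marker covariate and 0.15 within the Xist-low arrays. The dimmer one turned to 0.11 with the Xist-high term, 0.16 with the covariate and 0.33 within the Xist-low arrays, and without Irf4 null array 2 to 0.041 (lowest with 1 array left out -0.29). The Nqo2 probe sets turned to -0.068, -0.17 and -0.12 within the Xist-low arrays, the second also to -0.011 with the covariate. Each Xist subset has 1 array in 1 genotype, assumed to vary like the rest, so its counts rest on a single array there, and otherwise the cause was not tested. The deviations of same-numbered arrays from their group means correlated weakly for arrays 1 and 2 (r of 0.24 and 0.28). For arrays 3 and 4 they did not (-0.03 and -0.08). Arrays 1 were both Xist-high and arrays 2 both Xist-low, while arrays 3 and 4 differed in Xist between the genotypes. With a replicate block 1168 probe sets, 6 flanking probe sets and 9 neighbours were called. Of the calls over all probe sets 57.2% were higher, 47.8% with a common median. Dim signals limit Gm11342 and Mlkl.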
